A study of Homo sapiens with 6 samples.

Results

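MicroRNA host genes are genes whose primary transcript carries the hairpin of 1 or more microRNAs. The host genes described here are the 64 rows, of 61556 in the table of all annotated genes, whose symbol begins with MIR and ends with HG. Rows were picked by name alone. Of the 64, 22 reached a mean of 0.5 FPKM over the 6 libraries and entered the test between groups, among 15944 tested genes. FPKM scales fragments to the length of the transcript and to the mapped fragments of the library, so levels can be compared between genes of different length.

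The series measured RNA by sequencing in 3 control libraries and in 3 libraries of cells given lipopolysaccharide (LPS, a glycolipid of the bacterial cell wall), and by its design asks which transcripts differ between them. Both groups carry the genotype WT and the time 12 h, and the LPS dose is 1000 ng/ml. The treatment field reads the same in all 6 samples, so the groups were read from the titles. The titles give the cells as EA.hy926 and as HUVECs, endothelial cells of the umbilical vein. EA.hy926 is an established hybrid line of such a cell and A549, a line from lung carcinoma, and the labels do not settle which was used. Separate cultures are not stated for the libraries of a group, and the spread behind each p-value may therefore be technical.

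The labelled cell type was checked against marker genes. All 10 endothelial markers passed the filter, and their summed level was 366 to 492 FPKM in controls and 458 to 579 FPKM with LPS. Of 10 leukocyte markers, which summed to 7.67 to 13.2 FPKM in controls and 12.0 to 17.2 FPKM with LPS, 2 passed, and PTPRC, CD3E and TYROBP were at 0 in every library. Those that passed were CD68, at 5.93 ± 2.01 FPKM in controls and 5.03 ± 1.22 FPKM with LPS, and LAPTM5, at 5.16 ± 1.21 and 8.53 ± 1.60 FPKM (log2 change 0.68, unadjusted p = 0.0105, adjusted p = 0.414 by limma). Their part in the results below was not tested. Fibroblast and smooth muscle markers summed to 3951 to 4293 FPKM in controls and 3781 to 4316 FPKM with LPS, with COL1A1 at 1394 ± 139 FPKM (SD, n = 3) in controls, a gene singled out after its values were seen. The fibroblast list thus exceeded the endothelial list in every library, and its part in the host gene levels was not tested. Epithelial and A549 markers summed to 137 to 146 FPKM in controls and 97.8 to 121 FPKM with LPS, so the sum was lower in every LPS library. Of the 6 that passed the filter, 5 had a negative log2 change, and KRT7 was at 17.0 ± 0.935 and 23.8 ± 7.54 FPKM (log2 change 0.44). EPCAM, CDH1 and SFTPB had group means of at most 0.0385 FPKM. The part of this list in the results below was not tested. Summed FPKM of all genes was lowest in control 3 (427920) and reached 483345 in LPS 3. Identical nonzero values made up at most 0.00814% of any pair of libraries. In RNA from whole cultures, fewer cells of a type and less RNA per cell cannot be told apart.

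A microRNA is cut from its host transcript in the nucleus by the DROSHA and DGCR8 complex, exported by XPO5, trimmed by DICER1 and loaded into an Argonaute protein. The mature microRNA then pairs with messenger RNAs mainly through its seed, bases 2 to 8. Because the hairpin can lie in an intron or an exon, and because cutting can destroy the host transcript, the level of a host gene is not the level of its microRNA. In endothelial cells the best known microRNAs of such hosts act on inflammation (miR-155, miR-146a, miR-31, miR-181b), on vessel growth (the miR-17-92 cluster, miR-221, miR-222, miR-424, miR-503, miR-210) and on cell ageing (miR-34a, miR-22).

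The mature sequences of the microRNAs inside the host genes with the results below show which hosts could yield microRNAs of 1 family. They are RefSeq sequences on GRCh38.p14, written 5′ to 3′ with the seed in capitals. Of 104 hairpins on the strand of their host, 98 were matched in the RefSeq table by symbol. The let-7 seed GAGGUAG occurred in mature microRNAs of 4 tested hosts, namely MIR100HG, MIRLET7BHG, MIR99AHG and MIR4458HG. The seed ACCCGUA occurred in 2 hosts, MIR100HG and MIR99AHG, which also both hold a hairpin for the same mature miR-125b-5p.
let-7a-5p (MIR100HG and MIRLET7BHG): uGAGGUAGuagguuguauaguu
let-7b-5p (MIRLET7BHG): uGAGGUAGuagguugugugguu
let-7c-5p (MIR99AHG): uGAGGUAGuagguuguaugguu
miR-100-5p (MIR100HG): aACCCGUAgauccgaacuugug
miR-99a-5p (MIR99AHG): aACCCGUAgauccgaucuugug
miR-125b-5p (MIR100HG and MIR99AHG): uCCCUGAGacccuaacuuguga

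A further group of mature sequences shows 1 host giving rise to several members of a family, in MIR222HG, MIR17HG and MIR181A1HG. MiR-181a and miR-181b are also encoded in MIR181A2HG. The pair in MIR503HG has the seeds AGCAGCA and AGCAGCG.
miR-221-3p (MIR222HG): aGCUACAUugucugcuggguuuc
miR-222-3p (MIR222HG): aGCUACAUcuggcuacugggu
miR-17-5p (MIR17HG): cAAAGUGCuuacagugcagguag
miR-20a-5p (MIR17HG): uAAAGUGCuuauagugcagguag
miR-181a-5p (MIR181A1HG and MIR181A2HG): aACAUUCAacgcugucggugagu
miR-181b-5p (MIR181A1HG and MIR181A2HG): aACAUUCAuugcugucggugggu
miR-424-5p (MIR503HG): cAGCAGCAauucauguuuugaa
miR-503-5p (MIR503HG): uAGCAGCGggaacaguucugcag

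The remaining sequences belong to other hosts described below, and they share no seed with the sequences above.
miR-4435 (MIR4435-2HG): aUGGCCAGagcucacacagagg
miR-663a (MIR663AHG): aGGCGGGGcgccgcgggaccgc
miR-22-3p (MIR22HG): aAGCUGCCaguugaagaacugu
miR-210-3p (MIR210HG): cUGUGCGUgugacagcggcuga
miR-34a-5p (MIR34AHG): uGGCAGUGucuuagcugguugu
miR-137-3p (MIR137HG): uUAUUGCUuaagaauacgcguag
miR-31-5p (MIR31HG): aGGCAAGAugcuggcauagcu
miR-155-5p (MIR155HG): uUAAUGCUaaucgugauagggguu
miR-146a-5p (MIR3142HG): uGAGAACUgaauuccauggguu

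The 64 hosts spanned a wide range of expression. A mean of at least 10 FPKM was reached by 3 hosts, MIR4435-2HG, MIR663AHG and MIR100HG, which together held 62.3% of the summed FPKM of all 64. Another 15 had a mean from 1 to under 10 FPKM and 4 a mean from 0.5 to under 1 FPKM. A further 22 were above 0 in some library with a mean under 0.5 FPKM, and 20 were listed at 0 in every library. Of the 64, 32 were above 0 in all 6 libraries and 13 reached 1 FPKM in all 6. The number above 0 per library was 36 to 38, so the libraries differed little in how many hosts they detected. The 22 tested hosts lie on 15 chromosomes, with MIR222HG and MIR503HG on X, and hold 50 hairpins on their own strand.

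No microRNA host gene passed the test between LPS and control. With limma on log2(FPKM + 0.5) and Benjamini-Hochberg adjustment over all tested genes, 0 of 22 hosts had an adjusted p under 0.05, against 8 of 15944 genes (0.0502%). Nor did any of the 22 have an unadjusted p under 0.05 (0 of 22), against 9.21% of all tested genes, and the control and LPS values of 0 of 22 hosts did not overlap, against 15.9% of all tested genes. The unadjusted count became 3 without control 2, and 1 without control 1, without control 3 or without LPS 1. The log2 change was negative for 13 of 22 hosts and for 51.1% of all tested genes. Its median was −0.11 over the hosts and −0.01 over all tested genes. The 95% confidence interval included 0 for all 22 hosts, and for 5 hosts it also reached 1 or −1 on the log2(FPKM + 0.5) scale. Changes of that size could not be told from none for them. Adding 0.5 shrinks the changes of low hosts, so a 2-fold change in FPKM is not excluded by this for the low ones among the other hosts. The pseudocount matters little for an abundant host such as MIR4435-2HG. Its log2 change was 0.2056, and 0.2076 with a pseudocount of 0.1.

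**Figure D1:**
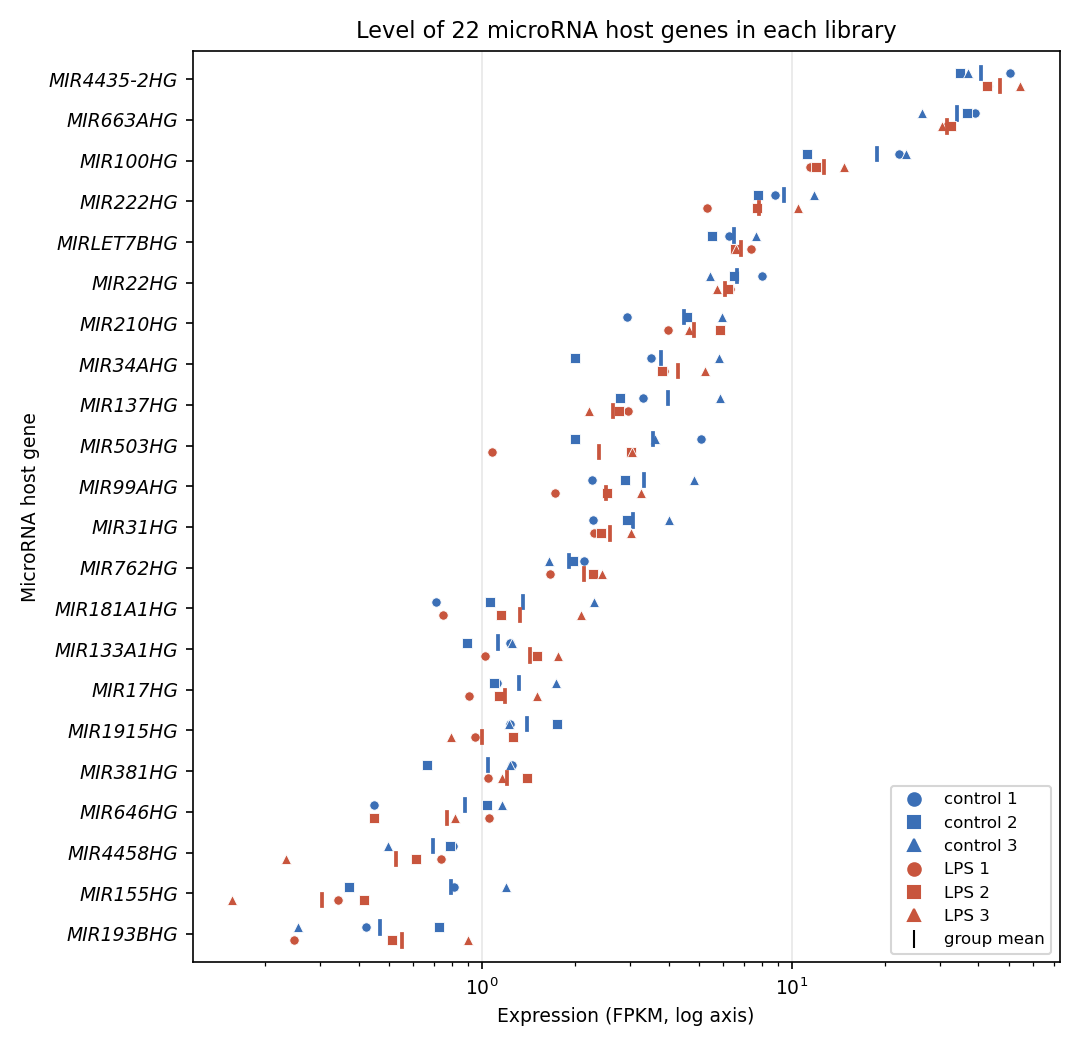
Level of the 22 tested microRNA host genes in each of the 6 libraries, in FPKM on a log axis, ordered by mean level. Blue symbols are controls, red symbols LPS libraries, the shape gives the replicate number and the vertical bars are group means. The groups overlap for every host, and the triangle of control 3 is the highest point for 12 of the 22.

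The plot of levels by library shows that the hosts differ far more from one another than the groups of any host do. The ratio of the highest to the lowest library ran from 1.39 for MIRLET7BHG to 7.68 for MIR155HG.

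MIR4435-2HG (chromosome 2, 111036776 to 111523376, minus strand) was the most abundant host. It is a long noncoding RNA gene known in mouse for limiting expression of the cell death gene Bcl2l11, its neighbour. Its level was 50.6, 34.8 and 37.0 FPKM in controls 1 to 3 and 43.0, 42.7 and 54.6 FPKM in LPS libraries 1 to 3. The highest value was in LPS 3 and the second highest in control 1, so the groups overlapped. The log2 change was 0.21 (SE 0.17, adjusted p = 0.758 by limma). BCL2L11 itself, on the opposite strand, stood at 0.577 ± 0.287 FPKM in controls and 0.494 ± 0.147 FPKM with LPS (log2 change −0.09).

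The level of MIR4435-2HG has to be read with that of CYTOR, a long noncoding RNA gene at 87454781 to 87636740 on the same chromosome that arose from duplicated sequence, looked up after the host values were seen. CYTOR was at 53.4, 37.9 and 63.6 FPKM in controls and 45.4, 30.8 and 67.3 FPKM with LPS (log2 change −0.15, adjusted p = 0.916 by limma). Either level is uncertain, because the division of fragments that match both genes is not given in the sources used here. Isoform MIR4435-2HG-203 held 78.8% of the level of MIR4435-2HG and ends, at 111429309, before the hairpin is reached. Isoforms that span the MIR4435-2 hairpin, which is intronic in GENCODE 29, held 13.8% of it.

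MIR663AHG (chromosome 20, 26167817 to 26251546, minus strand) came next. Its level was 38.9, 36.7 and 26.3 FPKM in controls and 31.7, 32.6 and 30.5 FPKM with LPS, so the LPS libraries fell inside the range of the controls. The log2 change was −0.08 (SE 0.15). Almost all of this level, 100% after rounding, came from 1 transcript that was assembled by the authors and has no Ensembl identifier, at 26167817 to 26208451. The hairpin row MIR663A, a gene of 93 bases, had a level of its own of 566 ± 112 FPKM in controls and 569 ± 90.6 FPKM with LPS. Such short rows lie under the length of a usual sequencing fragment, so their FPKM is not a measure of the mature microRNA.

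MIR100HG (chromosome 11, 122028325 to 122556721, minus strand) holds the hairpins of miR-100, let-7a-2 and miR-125b-1. It was at 22.1, 11.2 and 23.3 FPKM in controls and 11.5, 12.0 and 14.7 FPKM with LPS. Controls 1 and 3 were above all LPS libraries, while control 2 was the lowest of the 6. The log2 change was −0.49 (SE 0.27, adjusted p = 0.631). Without control 2 it was −0.82 with an unadjusted p of 0.00101 and an adjusted p of 0.376 by limma, and without control 3 it was −0.31. Leaving out the lowest control makes the change more negative by that choice, so no conclusion is drawn from it. All 3 hairpins are intronic in GENCODE 29. Isoforms across let-7a-2 and miR-100 held 49.2% of the gene level and those across miR-125b-1 66.7%.

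MIR99AHG (chromosome 21, 15928296 to 16645467, plus strand) carries the related set miR-99a, let-7c and miR-125b-2. At 3.32 ± 1.33 FPKM in controls and 2.51 ± 0.772 FPKM with LPS it was the lower of the pair in every library. Its log2 change was −0.32 (SE 0.29). Isoforms across miR-99a and let-7c held 40.2% of its level. MIRLET7BHG (chromosome 22, 46053869 to 46114219, plus strand), the host of let-7a-3 and let-7b, was at 6.28, 5.53 and 7.68 FPKM in controls and 7.35, 6.56 and 6.62 FPKM with LPS. It had the narrowest range of the 22 hosts and a log2 change of 0.08 (SE 0.14). The let-7 seed is also that of miR-4458, whose host MIR4458HG was at 0.696 ± 0.173 and 0.528 ± 0.264 FPKM (log2 change −0.24). Across the hosts of the let-7 seed the changes thus had both signs, and none passed the test.

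MIR222HG (chromosome X, 45745211 to 45772628, minus strand) is the host of miR-221 and miR-222, which repress KIT and the cell cycle inhibitor CDKN1B. It was at 8.82, 7.79 and 11.7 FPKM in controls and 5.31, 7.74 and 10.5 FPKM with LPS. LPS 1 was the lowest and control 3 the highest, and the libraries of both groups interleaved between them (log2 change −0.28, SE 0.25, adjusted p = 0.779 by limma). Isoforms across the miR-222 hairpin held 97.6% of the level but those across miR-221 only 33.9%. Assembled transcripts with 41.9% and 17.1% of the level end at 45747015, the edge of the miR-222 hairpin.

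MIR503HG (chromosome X, 134542990 to 134549635, minus strand), the host of miR-503 and miR-424, gave 5.10, 1.99 and 3.60 FPKM in controls and 1.08, 3.02 and 3.04 FPKM with LPS. It varied by 4.72 times between libraries, and control 2 lay below LPS 2 and LPS 3. The log2 change of −0.51 had an SE of 0.40 (adjusted p = 0.749 by limma). MIR17HG (chromosome 13, 91347820 to 91354579, plus strand) carries the 6 hairpins of the miR-17-92 cluster, a target of MYC. It stood at 1.31 ± 0.367 FPKM in controls and 1.18 ± 0.303 FPKM with LPS (log2 change −0.11, SE 0.21). The isoform MIR17HG-205, with 42.2% of the level, starts after the last hairpin of the cluster, and isoforms across the cluster held 42.7%.

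MIR210HG (chromosome 11, 565660 to 568457, minus strand), whose miR-210 is induced by hypoxia, was at 2.95, 4.59 and 5.95 FPKM in controls and 3.98, 5.86 and 4.67 FPKM with LPS. The LPS libraries lay inside the control range, with a log2 change of 0.13 (SE 0.25). All of its isoforms span the hairpin.

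MIR22HG (chromosome 17, 1711493 to 1717174, minus strand) is induced by many chemical stresses. Its level was 8.04, 6.50 and 5.43 FPKM in controls and 6.32, 6.21 and 5.72 FPKM with LPS, again inside the control range (log2 change −0.10, SE 0.16). The hairpin of miR-22 lies in an exon of all 19 GENCODE 29 transcripts, and the hairpin row MIR22 was at 20.7 ± 3.27 and 22.5 ± 0.674 FPKM. WDR81, which starts 651 bases away on the other strand, had a log2 change of −0.16.

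MIR34AHG (chromosome 1, 9142696 to 9202757, minus strand), the p53-responsive host of miR-34a, was at 3.51, 1.99 and 5.80 FPKM in controls and 3.86, 3.80 and 5.24 FPKM with LPS. Control 2 was the lowest library and control 3 the highest, and the LPS values fell between them (log2 change 0.26, SE 0.32). Assembled transcripts held 80.2% of its level. LNCTAM34A, which overlaps it on the opposite strand, had a log2 change of −0.29.

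MIR155HG (chromosome 21, 25561909 to 25575168, plus strand) is the host of miR-155, which NF-kB and AP-1 induce in immune cells. It was near the filter, at 0.810, 0.371 and 1.20 FPKM in controls and 0.342, 0.415 and 0.156 FPKM with LPS. Controls 1 and 3 were above every LPS library, whereas control 2 lay between LPS 1 and LPS 2. It had the smallest p of the 22 hosts, with a log2 change of −0.65 (SE 0.28, unadjusted p = 0.052, adjusted p = 0.547 by limma), and the estimate was lower with LPS, not higher. With a pseudocount of 0.1 the log2 change was −1.09 (adjusted p = 0.554 by limma). The unadjusted p by limma was 0.0457 after rescaling to a common sum over genes of at least 200 bases, and 0.0102 without control 2. Control 2 was the lowest control of MIR155HG. Leaving it out makes the change more negative by that choice, so no conclusion is drawn from that p. Isoforms across the exonic hairpin held 44.1% of the level.

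The other host of an inflammation microRNA, MIR3142HG, which holds the hairpin of the NF-kB induced miR-146a, was low. Its values were 0.132, 0.0536 and 0.0461 FPKM in controls and 0.150, 0.238 and 0 FPKM with LPS, too low to be tested. MIR31HG (chromosome 9, 21410969 to 21559900, minus strand), the host of miR-31, an inhibitor of E-selectin, was at 2.29, 2.95 and 4.0 FPKM in controls and 2.30, 2.42 and 3.04 FPKM with LPS. The groups overlapped (log2 change −0.19, SE 0.21), and isoforms across the hairpin held 99.8% of the level. MIR181A1HG was at 1.36 ± 0.838 and 1.33 ± 0.687 FPKM, with a log2 change of 0.0029 (SE 0.37) whose sign turned under 6 of 16 alternatives. Some of the 16, such as the filters and the replicate block, cannot turn a sign. Isoforms across the hairpins of MIR181A1HG held only 6.4% of its level.

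**Figure D2:**
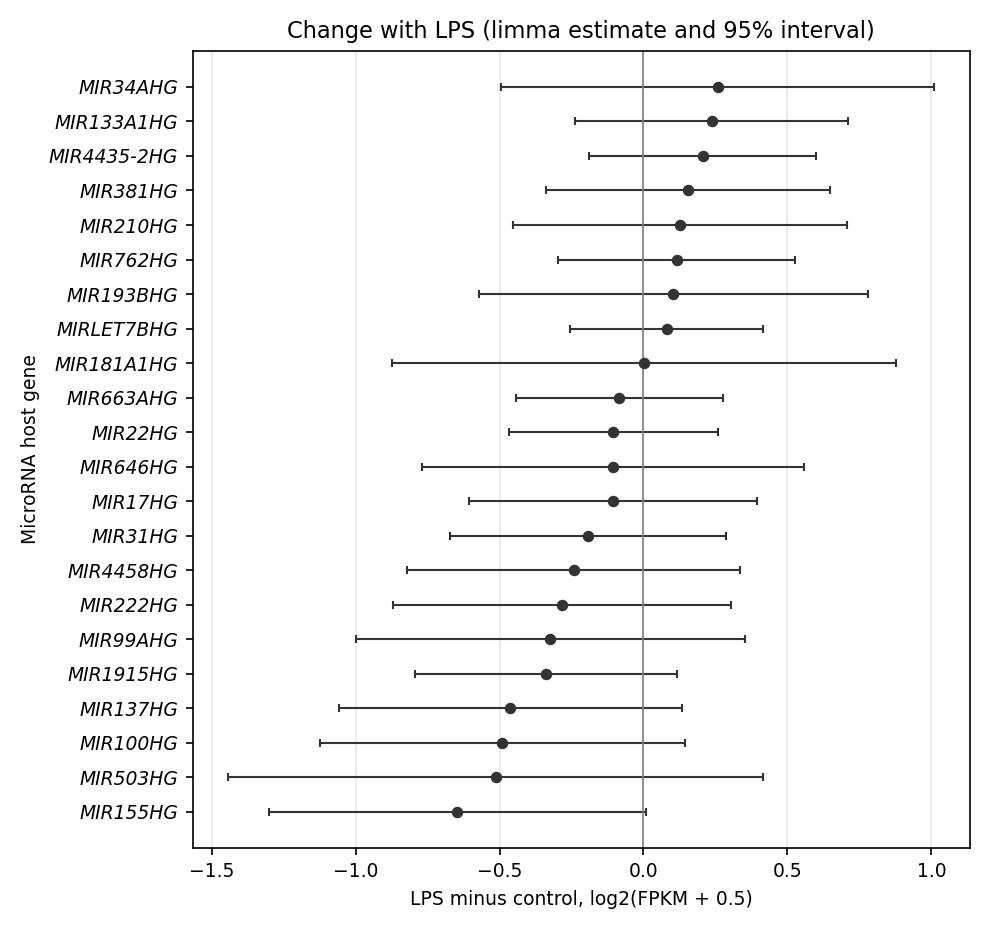
Change of each of the 22 tested host genes, as the limma estimate of LPS minus control on the log2(FPKM + 0.5) scale (points) with its 95% confidence interval (bars). Every interval includes 0, and MIR155HG at −0.65 lies farthest from it.

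The plot of changes orders the hosts from MIR34AHG at 0.26 to MIR155HG at −0.65. The widths of the intervals differed too, since the SE ran from 0.14 for MIRLET7BHG to 0.40 for MIR503HG.

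MIR137HG (chromosome 1, 97933474 to 98049863, minus strand), the host of the brain microRNA miR-137 and of miR-2682, was at 3.31, 2.79 and 5.86 FPKM in controls and 2.95, 2.77 and 2.21 FPKM with LPS. Control 3 stood apart at the top, and controls 1 and 2 lay near LPS 1 and 2 (log2 change −0.46, SE 0.25, adjusted p = 0.631 by limma). DPYD, the gene of the first enzyme of pyrimidine breakdown, overlaps it on the same strand and starts at the same base, 98049863, in the deposited annotation. DPYD was at 13.5, 15.8 and 18.0 FPKM in controls and 10.2, 11.0 and 10.5 FPKM with LPS, without overlap between groups (log2 change −0.55, SE 0.13, unadjusted p = 0.00319, adjusted p = 0.314 by limma). The division of fragments between these 2 genes is not given in the sources used here.

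The other 6 hosts with a mean of at least 0.5 FPKM can be given by their group means. MIR1915HG, named CASC10 and protein-coding in GENCODE 29, was at 1.40 ± 0.301 FPKM in controls and 1.0 ± 0.239 FPKM with LPS (log2 change −0.34, SE 0.19). MIR762HG was at 1.91 ± 0.247 and 2.13 ± 0.414 FPKM, and 88.8% of it was 1 assembled transcript. BCL7C overlaps MIR762HG on the opposite strand and had a level of 20.4 ± 1.64 and 20.9 ± 1.01 FPKM. Reads of BCL7C and reads antisense to it cannot be told apart, because the counting strand is not given in the sources used here. MIR381HG, which holds 9 hairpins of the imprinted microRNA cluster on chromosome 14, was at 1.05 ± 0.332 and 1.20 ± 0.176 FPKM. These 3 hosts overlapped between groups. MIR646HG was at 0.881 ± 0.379 and 0.773 ± 0.306 FPKM, and MIR193BHG, the host of miR-193b and miR-365a, at 0.467 ± 0.238 and 0.552 ± 0.328 FPKM.

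The transcript measured as MIR133A1HG was much longer than the annotated gene. Its level of 1.12 ± 0.197 FPKM in controls and 1.43 ± 0.375 FPKM with LPS came entirely from 1 assembled transcript on chromosome 18, 21740809 to 21864821, where GENCODE 29 places the gene at 21825487 to 21831410. The hairpin rows of its muscle microRNAs, miR-133a-1 and miR-1-2, were at 0 in every library. MIB1, a ubiquitin ligase gene on the opposite strand, covers the region and was at 11.5 ± 0.672 and 10.2 ± 0.670 FPKM. Reads of MIB1 and reads antisense to it cannot be told apart without the counting strand, which is not given in the sources used here.

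Among the 42 hosts under the filter, MIR378D2HG (mean 0.485 FPKM) and MIR29B2CHG (mean 0.478 FPKM) lay just outside it, and MIR193BHG (mean 0.510 FPKM) and MIR155HG (mean 0.549 FPKM) just inside. Without overlap between groups were 2 of the 42, of which 22 were above 0 in some library, against 6.88% of all 18055 genes with a mean above 0 and under 0.5 FPKM. MIR181A2HG was at 0.137, 0.0911 and 0.0366 FPKM in controls and 0.139, 0.236 and 0.137 FPKM with LPS. MIR302CHG, the host of the pluripotency cluster miR-302 and miR-367, was at 0.0483, 0.0815 and 0 FPKM in controls and 0.105, 0.175 and 0.614 FPKM with LPS. Both were higher in every LPS library, at levels too low to be tested. MIR181A2HG separated by 0.1370 FPKM in control 1 against 0.1374 FPKM in LPS 3. The hosts at 0 in every library include MIR122HG, MIR124-2HG, MIR200CHG and MIR9-3HG, whose microRNAs are typical of liver, nerve cells and epithelium.

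**Figure D3:**
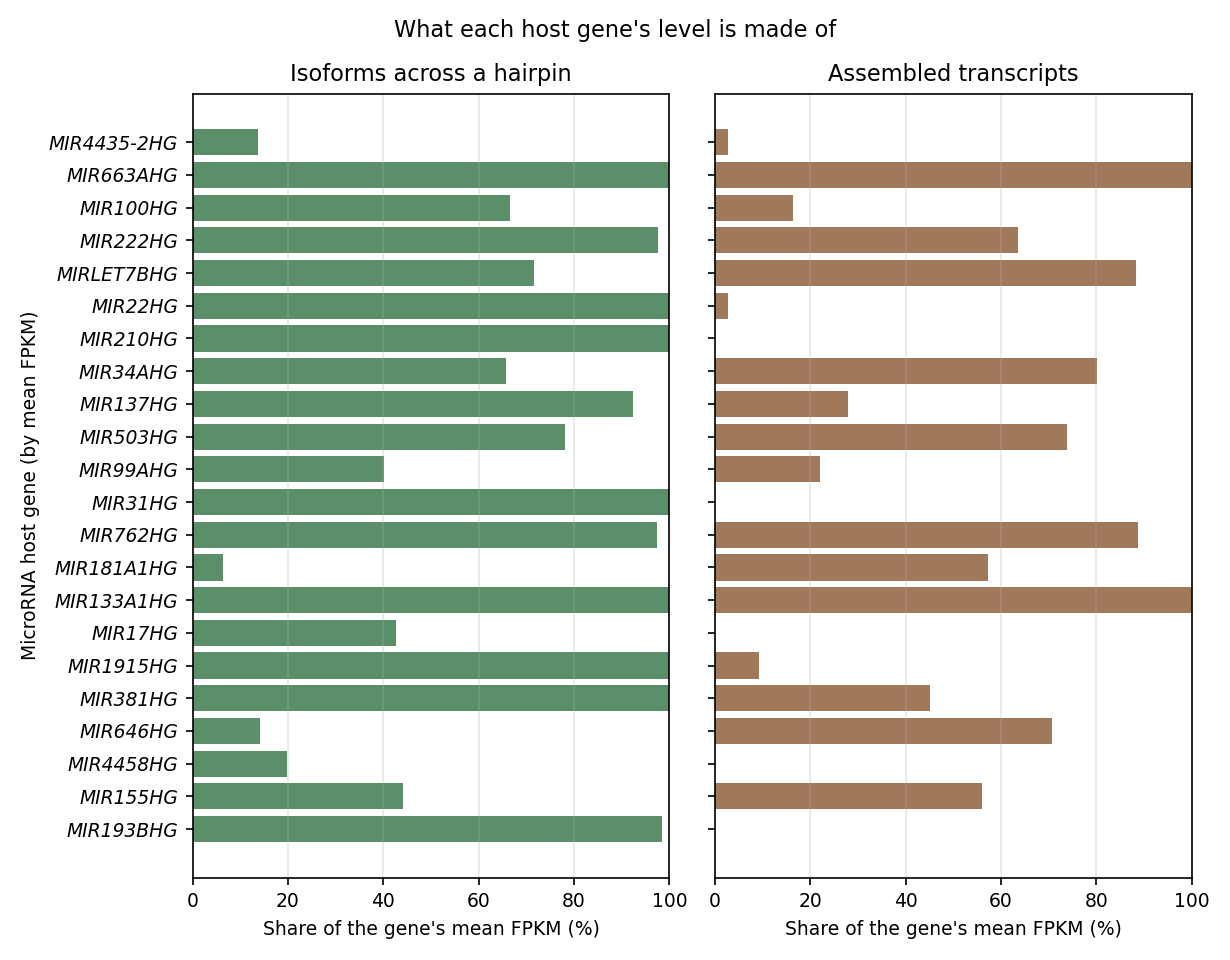
Share of each host gene's mean FPKM, in percent, held by isoforms whose span covers a microRNA hairpin (left, the hairpin with the highest share in each host) and by transcripts assembled by the authors that have no Ensembl identifier (right). Hosts are ordered by mean level. The left bar of MIR4435-2HG ends at 13.8% and that of MIR663AHG at 100%.

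The gene value equalled the sum of its transcripts for 64 of 64 hosts within 0.001 FPKM, so each level can be divided over isoforms, as the plot of what each level is made of does. In the tested hosts GENCODE 29 places 17 of the 50 hairpins in an exon, 27 in an intron, 2 across an exon edge and 4 outside its transcripts. An isoform that spans an intronic hairpin crosses its position, but its spliced RNA need not hold the hairpin. The share across a hairpin was 100% for MIR22, MIR210, MIR1915 and MIR663A, whereas it was 14.2% for MIR646 and 6.4% for MIR181A1. Assembled transcripts held over 50% of the level in 10 of 22 hosts.

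Transcripts of the host genes did not pass the test either. Of 38 tested transcripts, 0 had an adjusted p under 0.05 by limma over 35727 transcripts (0.098% of all tested), and 1 had an unadjusted p under 0.05 (5.77% of all tested). That transcript, MIR22HG-219, was at 1.01, 0.839 and 0.697 FPKM in controls and 0.309, 0.431 and 0 FPKM with LPS (log2 change −0.89, SE 0.33, unadjusted p = 0.0386, adjusted p = 0.819). It made up 8.59% of MIR22HG, while the main isoform MIR22HG-208 was at 2.31 ± 1.21 and 2.29 ± 0.467 FPKM. The groups of 3 of 38 transcripts did not overlap, against 12.4% of all tested transcripts. Besides MIR22HG-219 these were MIR100HG-215, lower with LPS at 1.67 ± 0.802 and 0.951 ± 0.187 FPKM, and 1 assembled transcript of MIR34AHG, higher with LPS at 0.295 ± 0.232 and 0.793 ± 0.216 FPKM.

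Several hosts had 2 or more isoforms at 0.5 FPKM. In MIR100HG, MIR100HG-217 held 18.9% and MIR100HG-276 16.8% of the level. MIR210HG-203 held 78.0% and MIR210HG-205 18.0% of MIR210HG, with log2 changes of 0.23 and −0.28. None of these isoforms passed the test.

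Levels summed over the isoforms across each hairpin were compared between groups with a two-sided exact permutation test, which at 3 against 3 cannot give a p under 0.1. Over 32 such sums the smallest Benjamini-Hochberg adjusted p was 0.772. The groups did not overlap in 2 of the 32 sums. Full separation of any 1 sum has a p of 0.1 by this test, so the count is not a result about the hosts. Beside it stand 12.4% of all tested transcripts and 6.88% of genes with a mean above 0 and under 0.5 FPKM. Neither share is a like measure, since the sums join isoforms and had no filter on their level. Isoforms across the hairpin of miR-155 were at 0.208, 0.221 and 0.825 FPKM in controls and 0.0470, 0.119 and 0.0296 FPKM with LPS (exact p = 0.1). Those of MIR137HG across miR-2682 were at 3.05, 2.69 and 5.37 FPKM in controls and 2.60, 2.62 and 2.01 FPKM with LPS (exact p = 0.1). Both were lower in every LPS library, and were picked for that separation. Their exact permutation p of 0.1 is the smallest the design allows and does not show a change.

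**Figure D4:**
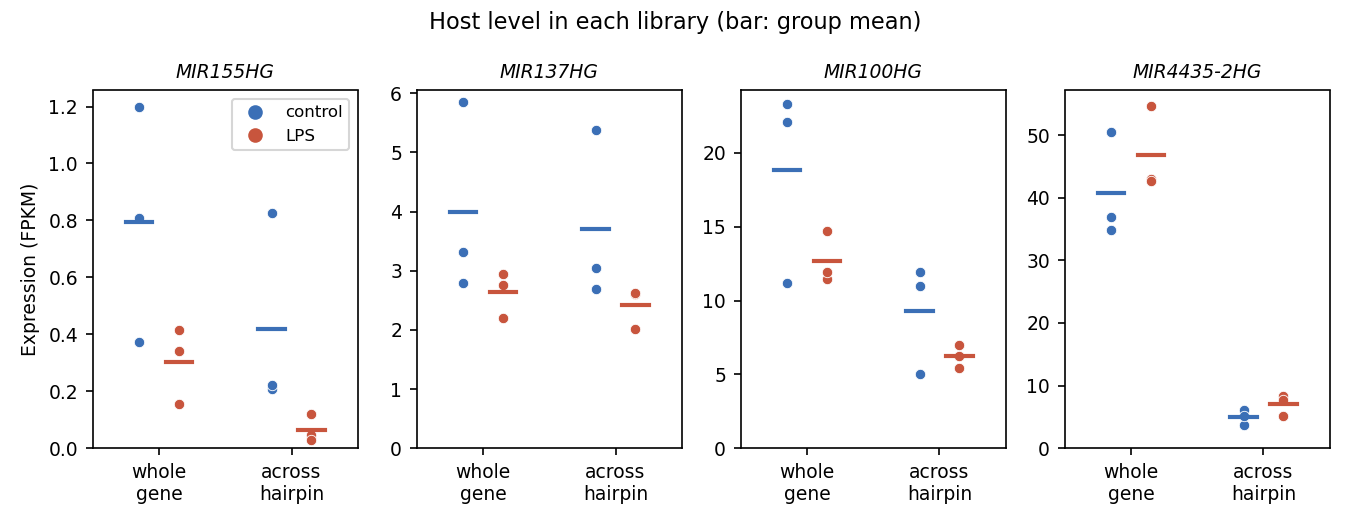
Level in each library, in FPKM, of 4 host genes as a whole and of their isoforms across 1 hairpin (miR-155, miR-2682, let-7a-2 and miR-100, and miR-4435 from left to right). Blue points are the 3 controls, red points the 3 LPS libraries and bars group means. Points of the 2 groups separate only for the isoforms across miR-155 and miR-2682.

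In the plot of whole genes beside isoforms, MIR4435-2HG drops from a control mean of 40.8 FPKM to 4.98 FPKM once only isoforms across the hairpin are counted. With LPS the same sums were 46.8 and 7.07 FPKM. MIR137HG by contrast keeps most of its level across miR-2682, at 92.3%, but 45.7% across miR-137. Its isoforms across miR-137, which are not plotted, were at 1.88 ± 0.821 FPKM in controls and 1.16 ± 0.334 FPKM with LPS. There the groups overlapped (exact permutation p = 0.2).

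Many of the hosts, but not all, shared a pattern across libraries that the groups do not describe. Of the 22 tested hosts 12 (54.5%) had their highest level in control 3, compared with 23.4% of all tested genes and 17.0% of 2029 tested long noncoding genes of GENCODE 29. The share was 24.6% for tested protein-coding genes. All tested genes were highest most often in LPS 3 (24.7%), where 18.2% of the hosts were. None of the 22 had its highest level in LPS 1, where 12.6% of all tested genes and 6.85% of the long noncoding genes did. The median deviation of the hosts from their own mean over libraries was 0.35 in control 3 on the log2(FPKM + 0.5) scale and −0.21 in LPS 1, beside 0.04 and −0.03 for all tested genes and −0.01 and −0.09 for the long noncoding genes. Control 3 is also the library with the lowest summed FPKM, and the part of that difference in the pattern was not tested. Without control 3 the median log2 change of the hosts was 0.01 and 11 of 22 were negative, whereas 17 of 22 were negative without control 2. Control 3 was singled out after most hosts were seen to be highest there. Leaving it out raises their changes by that choice, so no conclusion is drawn from it.

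**Figure D5:**
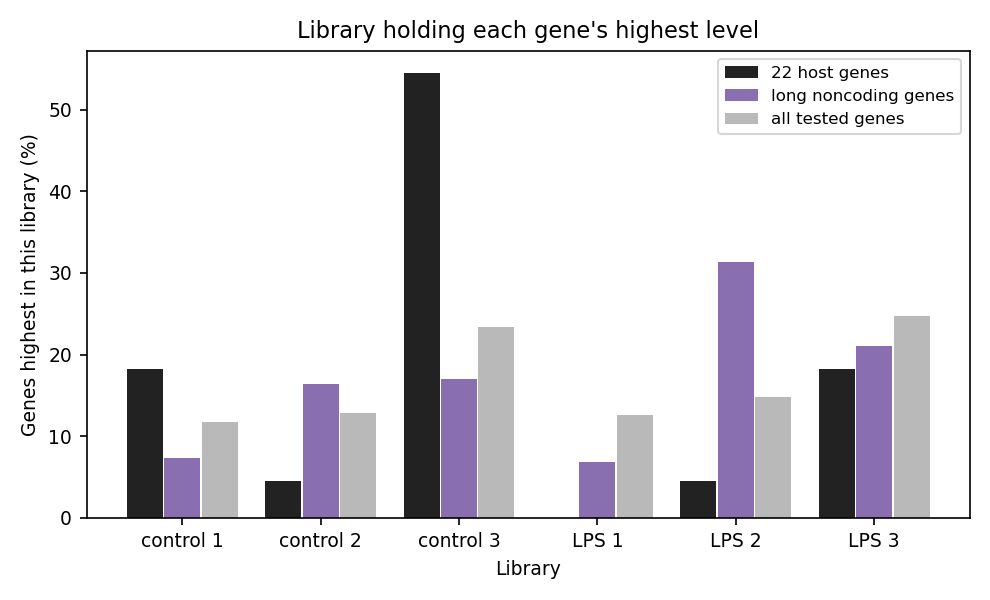
Percent of genes whose highest level is in each library, for the 22 tested host genes (black), 2029 tested long noncoding genes of GENCODE 29 (purple) and all 15944 tested genes (grey). The black bar reaches 54.5% in control 3 and is absent in LPS 1.

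The plot of the library with the highest level shows that the long noncoding genes as a class peak elsewhere, with 31.3% highest in LPS 2. The host genes had 4.55% there.

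Genes that make and use microRNAs were measured beside the hosts. Of 30 biogenesis and effector genes measured, 28 were tested and 0 passed the adjusted threshold by limma. At an unadjusted p under 0.05, 1 was higher, where 4.57% of all tested genes were, and 0 were lower. The 3 with the smallest p were ZC3H12A, an RNase that cuts microRNA precursors and cytokine messengers, at 5.26 ± 0.252 and 8.75 ± 1.60 FPKM (log2 change 0.67, unadjusted p = 0.00259, adjusted p = 0.304 by limma), DROSHA at 12.6 ± 1.15 and 10.5 ± 0.259 FPKM, and the DROSHA cofactor DDX5 at 88.8 ± 8.02 and 75.6 ± 6.04 FPKM. DICER1 was at 6.76 ± 1.37 and 6.11 ± 1.26 FPKM. LIN28A and LIN28B, which block let-7 maturation, were at 0 in every library.

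Other genes that host microRNAs have names of another form. Of 34 measured, 28 were tested, 0 passed the adjusted threshold, and at an unadjusted p under 0.05 0 were higher and 2 lower (4.63% of all tested genes were lower). They were TLN2, the host of miR-190a, at 3.43 ± 0.505 and 2.36 ± 0.330 FPKM, and H19, the host of miR-675, at 6.14 ± 1.27 and 3.82 ± 1.31 FPKM. GABRE, the host of miR-452 and miR-224, came next with a log2 change of −0.60.

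Of 25 known targets of the hosted microRNAs measured, 23 were tested and 0 passed the adjusted threshold by limma. At an unadjusted p under 0.05, 5 were higher and 1 lower, where 4.57% of all tested genes were higher and 4.63% lower, and the median log2 change was 0.07. The 3 with the smallest p were the adhesion molecules ICAM1, at 40.0 ± 4.33 and 83.3 ± 23.7 FPKM, and SELE, at 0.111 ± 0.0779 and 1.22 ± 0.735 FPKM, and the matrix protein gene CCN2, at 591 ± 34.7 and 717 ± 12.0 FPKM. SELE is a known target of miR-31, ICAM1 of miR-17-3p and CCN2 of miR-18a, and NF-kB induces ICAM1 and SELE directly. The part of these microRNAs or of NF-kB in the values above was not tested. The target list was chosen with earlier results of these data known. Its counts beside the shares of all tested genes are therefore not a result about microRNA targets.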

How the data were processed

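The deposited values are FPKM per gene and per transcript, calculated by the authors, who name HISAT2 and StringTie without versions per the submitters' processing notes. Those notes also name the mouse build mm9, whereas the tables hold human Ensembl identifiers at GRCh38 coordinates, which are used here. Alignment options, counting strand and read counts: not given in the sources used here. Tables used were 3 of 5, for all genes, all transcripts and long noncoding transcripts. For long single-exon genes, FPKM times length was compared with whole multiples of its commonest low value. Few values (7.25% to 17.2% per library) were whole multiples within 0.02. That low value was rounded, which by itself moves larger values off a multiple, so the check cannot decide whether reads could be recovered. No reads were recovered, and depth is unknown.

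Features whose mean reached 0.5 FPKM were fitted on log2(FPKM + 0.5) with limma 3.58.1 (R 4.3.3), with group alone in the model, eBayes with a mean-variance trend, two-sided, and Benjamini-Hochberg adjustment within each table. The threshold was an adjusted p under 0.05. Adding 0.5 understates changes of low genes. The procedure was tested on simulated data. The members and gene lists were chosen with earlier results of these data known. Every host with a mean of at least 0.5 FPKM is named, with values in every library for the 8 most abundant, for hosts whose groups do not overlap and for some further hosts chosen for their known role. Of each other list the 3 genes with the smallest p are named. One marker gene is not reported here. Mature sequences are shown for selected microRNAs, 1 arm each, and the others are left out. Hairpins were placed by coordinates, and their exons come from GENCODE 29, where 30 of 64 hosts had the same start and end. Alternatives covered the pseudocount, filter, scaling, replicate block, library weights, sums of transcripts and leaving out each library.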

Additional observations from a re-analysis of the deposited data

How the results depend on the processing

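No host gene or host transcript, and no gene of the biogenesis, other host or target lists, passed the adjusted threshold under the alternatives run for it. The common sum was not run for transcripts, and the marker lists were run under none. The number of all genes past it was 8, and moved to 5 with a pseudocount of 1, 0 without a filter (2196 at an unadjusted p under 0.05), 5 after quantile normalization, 1 after a common sum over genes of at least 200 bases, and 1 to 7 with 1 library left out (3 without control 2, 4 without LPS 1, 1 without LPS 2 and 3 without LPS 3). The number of hosts at an unadjusted p under 0.05 was 0 and became 1 with the common sum (MIR155HG, log2 change −0.68, adjusted p = 0.594 by limma). With 1 library left out it was 0 to 3, the 3 without control 2 being MIR100HG (−0.82), MIR137HG (−0.66) and MIR155HG (−0.90). Without control 1 it was MIR4435-2HG (0.37), without control 3 MIR663AHG (−0.26), and without LPS 1 MIR29B2CHG (0.76), which is under the filter with all 6 libraries. The median log2 change of the hosts ran from −0.15 to 0.01 with 1 library left out.

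Over 344 pairs of a host and an alternative the sign turned in 19, in 10 hosts, and 12 hosts never turned. The filters, the replicate block and the sums of transcripts leave the estimate of a host practically unchanged. Those pairs could not turn, so 19 of 344 is no measure of stability. MIR181A1HG turned with a pseudocount of 1 (−0.0017), the common sum (−0.0392) and library weights (−0.0290), and MIR193BHG with library weights (−0.0072). With 1 library left out the changes of the hosts that turned ran from −0.2567 to 0.0226 for MIR663AHG, −0.2326 to 0.0306 for MIR22HG, −0.1178 to 0.335 for MIR210HG, −0.2805 to 0.3463 for MIR181A1HG, −0.0215 to 0.1982 for MIRLET7BHG, −0.0795 to 0.5895 for MIR34AHG, −0.0377 to 0.2542 for MIR381HG, −0.2409 to 0.0545 for MIR17HG, −0.3563 to 0.0929 for MIR646HG and −0.0604 to 0.327 for MIR193BHG. Among the hosts that did not turn, it ran from −0.8282 to −0.127 for MIR503HG, −0.8214 to −0.3063 for MIR100HG, −0.6553 to −0.181 for MIR137HG, −0.5299 to −0.0574 for MIR99AHG, −0.5051 to −0.0451 for MIR222HG, −0.3944 to −0.0148 for MIR4458HG, −0.359 to −0.0134 for MIR31HG and 0.0903 to 0.3688 for MIR4435-2HG. The cause was not tested.

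With the replicate number as a block, 0 genes passed the adjusted threshold and 0 hosts passed either threshold. At an unadjusted p under 0.05 by limma there were 1736 genes, against 1468 without the block. Same-numbered libraries correlated at 0.026, 0.121 and 0.0926 in their deviations from the group means. Differently numbered ones correlated at −0.109 to 0.0104, all below these values. Nothing in the labels says that a number marks a shared culture or day, so the pairing was not used in the main test. Whether same-numbered libraries share a batch was not tested. FPKM carries no depth, so the counting error of low hosts and transcripts is unknown.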
